A study of Mus musculus with 24 samples.

Results

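The sarcomeric myosins and myosin-binding proteins were followed in HL-1 cells, a line of contracting cells that came from a mouse atrial tumour. The 10 genes were taken by symbol from the deposited table of 20351 protein-coding genes. They are the heavy chains Myh6, Myh7 and Myh7b, the regulatory light chains Myl7 and Myl2, the essential light chains Myl1, Myl4 and Myl3, and the binding proteins Mybpc3 and Mybphl. Messenger RNA was sequenced in 24 libraries, and the titles place 6 in each of 4 groups. The groups were knockdown cells under stretch, control cells under stretch, knockdown cells without stretch and control cells without stretch. All cells, controls included, carried an adenovirus given at 30 infectious units per cell (MOI). In knockdown cells it encoded a short hairpin RNA against MuRF1, the product of Trim63, and in control cells a scrambled hairpin. Stretch of 15% at 1 Hz for 60 min began 48 h after transduction, and the labels describe it both as uniaxial and as biaxial. Whether the 6 libraries of a group came from separate cultures is not given in the labels. The p-values below therefore measure the spread between these libraries, which may be technical.

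A sarcomere is the contractile unit of striated muscle, and its thick filaments are built from myosin. A myosin molecule is a pair of heavy chains, each carrying a motor head and, at its neck, an essential and a regulatory light chain. Myosin-binding proteins sit on the thick filament backbone, where cardiac myosin-binding protein C tunes how many heads can reach actin. Atrial muscle of the mouse is known for Myh6, Myl7 and Myl4, and ventricular muscle for Myl2 and Myl3. MuRF1 is a muscle ubiquitin ligase of the M-line, known in mouse skeletal muscle for marking thick filament proteins for breakdown. Only RNA was measured here.

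The knockdown was visible in its target. Trim63 averaged 55.7 ± 1.17 CPM (counts per 1000000, scaled between libraries) in knockdown cells without stretch, against 640 ± 68.1 CPM in control cells without stretch (SD, n = 6 each). Under stretch the averages were 68.5 ± 7.91 CPM with the hairpin against MuRF1 and 781 ± 81.7 CPM with the scrambled one (SD, n = 6 each). The exact two-sided permutation p was 0.00216 each time, the smallest that 6 against 6 libraries can give. Libraries held 23564268 to 54755203 estimated counts. Replicate 5 of the stretched control cells was the shallowest and stood apart in several members, and all other libraries held at least 37705431 counts. The library codes hold a number that is constant within a group, so whatever it stands for cannot be told apart from the group. The cardiac markers Tnnt2, Ryr2, Gata4 and Atp2a2 were expressed, with Tnnt2 averaging from 513 to 1270 CPM over the groups. Of the atrial list, Hcn4, Tbx5, Pln, Actc1 and Nkx2-5 were expressed too, with group means of at least 37.9 CPM. The rest of that list was low. Nppa, the atrial natriuretic peptide, averaged from 0.396 to 0.558 CPM over the groups. Group means ran from 0.275 to 1.12 CPM for Nppb, from 1.09 to 2.66 CPM for Gja5 and from 0.0876 to 0.522 CPM for Bmp10. Sln and Kcna5 were too low to be tested.

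The DNA just upstream of a RefSeq start site is shown for the members that the results below turn on. It was searched for the binding motifs of cardiac transcription factors. Each sequence is the 250 bases before the RefSeq start site (GRCm38.p6), printed 5′ to 3′ on the gene's strand, with motif matches in capitals. The window of Myl7 is chr11:5898783-5899032 on the minus strand, that of Myh6 chr14:54966608-54966857 on the minus strand, that of Myl1 chr1:66945057-66945306 on the minus strand and that of Mybpc3 chr2:91117894-91118143 on the plus strand. For Myh6 and Myl1 the RefSeq start lies inside the GENCODE vM21 gene, and the whole window lies inside that gene too, near its 5′ end.
Myl7: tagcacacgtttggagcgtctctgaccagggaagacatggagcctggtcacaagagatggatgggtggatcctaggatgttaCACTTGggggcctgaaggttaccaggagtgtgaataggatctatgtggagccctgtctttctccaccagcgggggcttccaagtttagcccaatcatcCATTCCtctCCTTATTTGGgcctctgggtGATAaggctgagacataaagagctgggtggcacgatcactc
Myh6: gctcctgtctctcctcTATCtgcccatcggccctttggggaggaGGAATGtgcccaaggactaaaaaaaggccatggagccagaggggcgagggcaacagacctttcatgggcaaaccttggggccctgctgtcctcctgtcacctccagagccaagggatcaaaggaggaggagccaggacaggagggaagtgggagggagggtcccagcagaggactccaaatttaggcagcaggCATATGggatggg
Myl1: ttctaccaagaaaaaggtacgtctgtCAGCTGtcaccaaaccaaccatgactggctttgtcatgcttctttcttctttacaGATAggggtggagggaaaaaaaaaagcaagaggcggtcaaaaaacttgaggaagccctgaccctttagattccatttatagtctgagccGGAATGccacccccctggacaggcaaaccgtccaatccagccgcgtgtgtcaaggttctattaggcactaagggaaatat
Mybpc3: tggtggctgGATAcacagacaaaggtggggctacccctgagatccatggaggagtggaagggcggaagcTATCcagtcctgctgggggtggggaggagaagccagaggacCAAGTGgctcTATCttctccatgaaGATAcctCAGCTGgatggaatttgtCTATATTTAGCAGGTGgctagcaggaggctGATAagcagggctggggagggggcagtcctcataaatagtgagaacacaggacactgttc
The motifs searched on both strands were GATA, the E-box CANNTG, the TEAD motif CATTCC (M-CAT), the MEF2 box and the SRF CArG box. In the Myl7 window the M-CAT motif spans bases -70 to -65 and the CArG box bases -61 to -52, with GATA at -41 to -38. The Mybpc3 window holds 5 GATA motifs and 3 E-boxes, and its MEF2 box at -90 to -81 adjoins without overlap the E-box at -80 to -75. A CArG box was found for 2 of the 10 genes, Myl7 and Myl3, and in 1.47% of 32851 windows of the same length before RefSeq start sites. A MEF2 box was found for 1 of the 10 and in 2.92% of all windows. The M-CAT motif was found for 5 of the 10 (Myh6, Myh7, Myl1, Myl3 and Myl7) and in 12.6% of all windows. GATA was found for 9 of the 10 and in 53.6% of windows, and the E-box for 8 of the 10 and in 66.2%. Myh7 and Myl2 had 2 windows each and were counted if either held the motif, while the shares over all windows are per window. The Myl2 windows (chr5:122092474-122092723 and chr5:122092939-122093188) end well before the GENCODE vM21 gene, which starts at 122100951. The Myl3 window (chr9:110763428-110763677) lies inside its GENCODE gene (110741861-110769798). For these genes the counts describe RefSeq starts, and the DNA before the GENCODE starts was not searched. The Myl4 window held none of the motifs.

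Knockdown of MuRF1 moved most of the expressed members, and mostly downwards. Without stretch, 6 of the 8 members that passed the filter on low counts fell (Myl7, Myh6, Mybphl, Myl1, Mybpc3 and Myl4), 1 rose (Myl2) and Myh7b did not pass the test. The same split was found under stretch. Myl2 entered the test through knockdown libraries only, where it was higher, so its direction was set by the filter and is no support for a rise. A gene was called at an adjusted p under 0.05 in edgeR's quasi-likelihood test, with Benjamini-Hochberg adjustment over all 14411 genes tested. Calls were common in these comparisons. Without stretch 57.8% of all genes tested were called, 29.7% as lower and 28.0% as higher, and under stretch 52.0% were called, 26.9% as lower and 25.1% as higher. A call by itself therefore says little about the myosins, and the sizes of the changes are given beside those of all genes. The median log2 fold change of the 8 members was -0.67 without stretch and -0.74 under stretch, against medians over all genes tested of 0.0087 and 0.0025. Leaving Myl2 out, the median of the other 7 was -0.75 without stretch and -0.77 under stretch. The median absolute log2 fold change of all genes was 0.20 without stretch and 0.17 under stretch. In sum, the 10 members took 120 ± 5.92 unscaled CPM in knockdown cells without stretch, against 283 ± 10.4 in control cells without stretch (SD, n = 6 each). Under stretch they took 128 ± 3.39 unscaled CPM in knockdown cells and 283 ± 26.4 in control cells (SD, n = 6 each). In bulk RNA, fewer cells expressing these genes and less of their RNA per cell cannot be told apart.

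**Figure D1:**
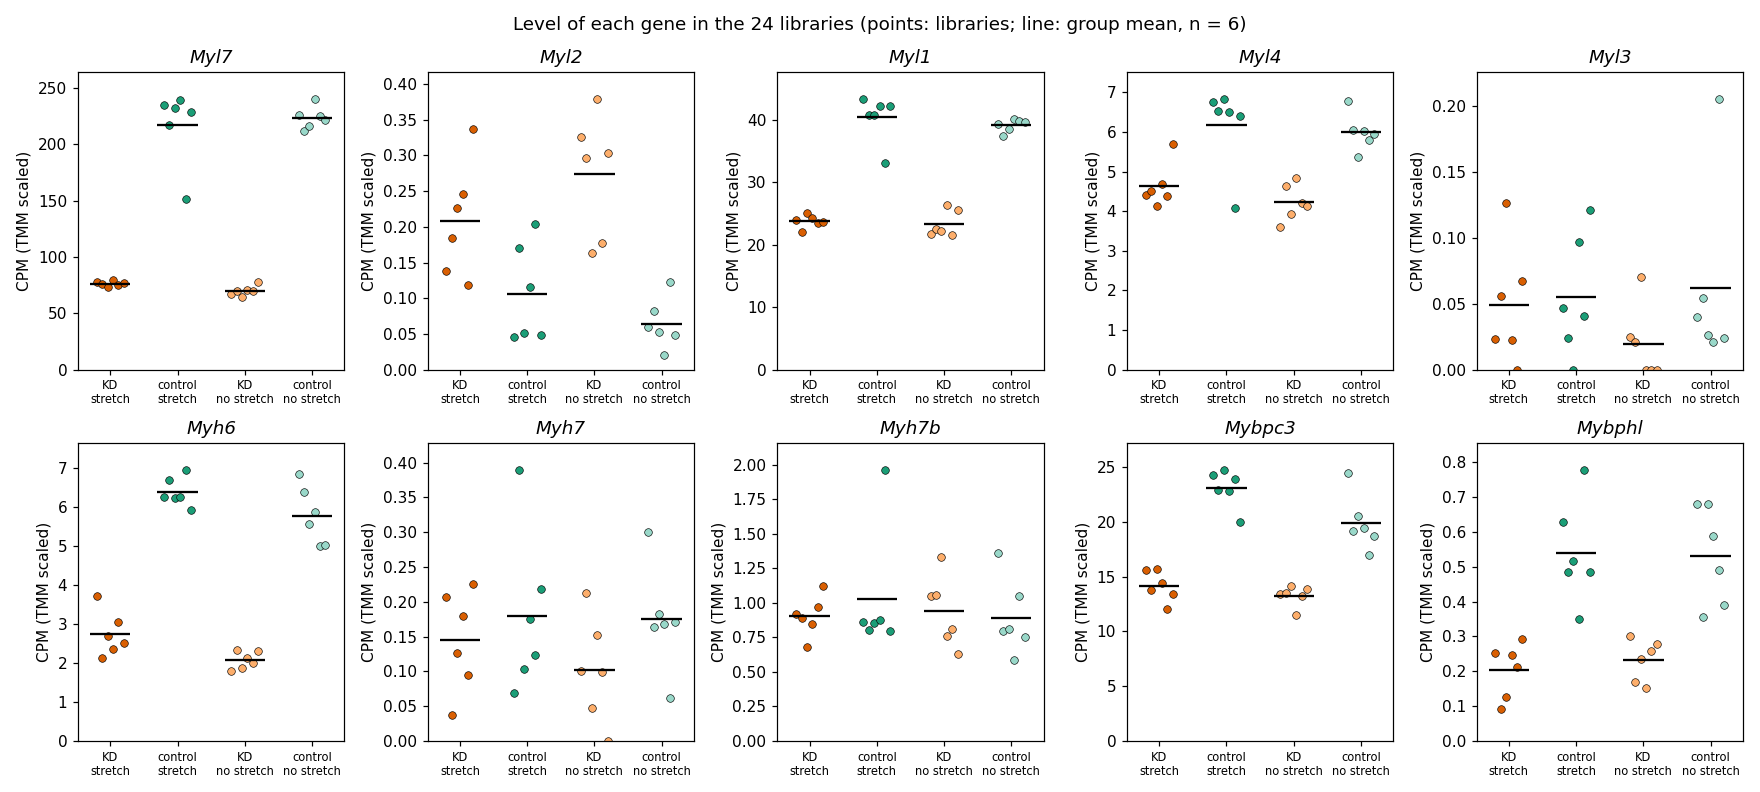
TMM-scaled CPM of each member in every library by group, with 1 point per library, a line at the group mean and an axis of its own for each gene. Myl7 sits between 64.9 and 79.3 CPM in all 12 knockdown libraries and between 151 and 240 CPM in all 12 control libraries.

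Among the heavy chains, Myh6 fell in knockdown cells and Myh7b did not pass the test. Myh6 encodes the alpha heavy chain, the fast cardiac isoform of mouse atria and adult ventricles (chr14:54941921-54966927, minus strand, GENCODE vM21 on GRCm38). In knockdown cells without stretch its lowest, median and highest values were 1.80, 2.06 and 2.33 CPM, against 5.00, 5.72 and 6.85 CPM in control cells without stretch. Under stretch they were 2.13, 2.60 and 3.73 CPM in knockdown cells, against 5.93, 6.25 and 6.95 CPM in control cells. Every knockdown library lay below every control library, with and without stretch. Without stretch the log2 scale difference was -1.48 (SE 0.109, adjusted p = 4.05e-12, edgeR), or 64.1% lower. Under stretch it was -1.22 (SE 0.106, adjusted p = 1.40e-10, edgeR), or 57.1% lower.

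Myh7b, a slow-type heavy chain gene of ancient origin, was near 1 CPM throughout. Without stretch its lowest, median and highest values were 0.632, 0.932 and 1.33 CPM in knockdown cells, against 0.588, 0.801 and 1.36 CPM in control cells. Under stretch they were 0.678, 0.905 and 1.12 CPM in knockdown cells, against 0.799, 0.856 and 1.96 CPM in control cells. The groups overlapped, and the difference passed the test in no comparison. Its log2 fold change with knockdown was 0.07 (SE 0.225, adjusted p = 0.812, edgeR) without stretch and -0.13 (SE 0.226, adjusted p = 0.668, edgeR) under stretch. The highest value, 1.96 CPM, was that of replicate 5 of the stretched control cells, and without this library the log2 fold change under stretch was 0.11 (adjusted p = 0.649).

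Myh7, the beta heavy chain of fetal ventricle and slow muscle, lies on the same strand as Myh6 with 3756 bases between the genes (chr14:54970684-54994626). It did not pass the filter, which asked for more than 0.233 CPM in at least 6 libraries, and held between 0 and 15.9 estimated counts in any library. Its mean without stretch was 0.102 CPM in knockdown cells, against 0.175 CPM in control cells. Under stretch it was 0.145 CPM in knockdown cells, against 0.180 CPM in control cells. The groups overlapped throughout, and differences between them were not detectable at this depth. Of the 31-base words of the longest Myh6 coding transcript, 32.3% also occur in Myh7 transcripts, so how the authors' counting split reads between these genes is uncertain.

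Each of these heavy chain genes is known as the host of a cardiac microRNA, whose mature sequences share most of a seed. The mature sequences are given because they lie within the gene bodies whose RNA is reported here, though the deposited table does not measure them. Bases 2 to 8, the seed, are in capitals (RefSeq, GRCm38.p6).
mmu-miR-208a-3p: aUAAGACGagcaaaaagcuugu
mmu-miR-208b-3p: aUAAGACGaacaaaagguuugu
mmu-miR-499-5p: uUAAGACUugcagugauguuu
miR-208a lies in Myh6 (chr14:54949072-54949093, minus strand) and miR-208b in Myh7 (chr14:54975710-54975731, minus strand), and both have the same seed. miR-499 lies in Myh7b (chr2:155622893-155622913, plus strand), and its seed is a different one.

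Of the regulatory light chains, Myl7 fell, and Myl2 was higher in knockdown cells, the libraries through which alone it passed the filter. Myl7, the atrial regulatory light chain (chr11:5896637-5898782, minus strand, 7 exons in a transcript of 590 bases), had the highest level per length of all members and the largest fall among those tested. In knockdown cells without stretch its lowest, median and highest values were 64.9, 69.8 and 77.5 CPM, against 212, 223 and 240 CPM in control cells without stretch. Under stretch they were 73.2, 76.6 and 79.3 CPM in knockdown cells, against 151, 230 and 239 CPM in control cells. The groups were far apart, and even the lowest control library, replicate 5 under stretch, lay above all knockdown libraries. On the log2 scale the change was -1.68 (SE 0.0729, adjusted p = 2.80e-16, edgeR) without stretch, which is 68.7% lower. Under stretch it was -1.51 (SE 0.0724, adjusted p = 3.17e-15, edgeR), or 64.8% lower, and -1.59 without that replicate. By this measure Myl7 ranked 110th from the lowest among 14411 genes without stretch and 112th under stretch.

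Myl2, the ventricular regulatory light chain, was barely expressed and was higher in knockdown cells. It held between 7.48 and 14.8 estimated counts in the 6 knockdown libraries without stretch, against 1 to 6.46 in the 6 control libraries without stretch. Its lowest, median and highest values there were 0.164, 0.300 and 0.379 CPM in knockdown cells, against 0.021, 0.0562 and 0.123 CPM in control cells. Under stretch they were 0.119, 0.206 and 0.337 CPM in knockdown cells, against 0.0464, 0.0841 and 0.204 CPM in control cells. The groups were separate without stretch and overlapped under stretch. As a log2 fold change the difference was 2.02 (SE 0.387, adjusted p = 6.28e-05, edgeR) without stretch and 1.03 (SE 0.377, adjusted p = 0.024, edgeR) under stretch. Myl2 passed the filter through knockdown libraries only (4 of 6 without stretch and 3 of 6 under stretch, none of the control libraries), so that a gene admitted in this way had to differ. The limit that a count of 0 allows, 3 counts, lay between 0.0556 and 0.123 CPM per library, and part of the control values lie at or under it. The call under stretch was lost in 4 fits that each left out 1 library, which are replicate 6 of the knockdown cells (0.84, adjusted p = 0.0755) and replicates 1 (0.87, adjusted p = 0.0638), 3 (0.90, adjusted p = 0.0579) and 6 (0.88, adjusted p = 0.0613) of the control cells. Even so, Myl2 remained a trace beside Myl7. Per length, it made up 0.259% ± 0.0776 of both regulatory light chains in knockdown cells without stretch and 0.0193% ± 0.0105 in control cells without stretch (SD, n = 6 each).

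Both expressed essential light chains fell. Myl1, whose products are the essential light chains of fast skeletal muscle, had 21.6, 22.4 and 26.4 CPM as its lowest, median and highest values in knockdown cells without stretch, against 37.3, 39.4 and 40.1 CPM in control cells without stretch. Under stretch it had 22.1, 23.8 and 25.1 CPM in knockdown cells, against 33.0, 41.4 and 43.3 CPM in control cells. Knockdown and control libraries did not overlap. Its log2 fold change was -0.75 (SE 0.0544, adjusted p = 2.96e-12, edgeR) without stretch and -0.77 (SE 0.0544, adjusted p = 2.02e-12, edgeR) under stretch, or 40.4% and 41.3% lower. The 31-base words of its longest coding transcript occur to 28.4% in the pseudogene Mylf-ps as well, so its level is uncertain, by an amount that was not tested.

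Myl4, the essential light chain of atria and of embryonic muscle, changed least among the members that were called. Its lowest, median and highest values were 3.61, 4.17 and 4.83 CPM in knockdown cells without stretch, against 5.36, 5.98 and 6.77 CPM in control cells without stretch. Under stretch they were 4.14, 4.45 and 5.70 CPM in knockdown cells, against 4.09, 6.51 and 6.83 CPM in control cells. The groups were separate without stretch, and overlapped under stretch through replicate 5 of the control cells, whose other libraries lay between 6.39 and 6.83 CPM. The log2 fold change was -0.50 (SE 0.0977, adjusted p = 7.61e-05, edgeR) without stretch and -0.43 (SE 0.097, adjusted p = 0.000535, edgeR) under stretch, and -0.51 without that replicate. Myl3, the essential light chain of ventricles and slow muscle, did not pass the filter. It held 0 to 10 estimated counts in any library, with means of 0.0194 CPM in knockdown cells, against 0.0619 CPM in control cells, without stretch. Under stretch its means were 0.049 CPM in knockdown cells, against 0.055 CPM in control cells. These means are at or below 3 counts per library, and no difference was detectable.

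The binding proteins fell as well. Mybpc3, the cardiac myosin-binding protein C (chr2:91118144-91136516, plus strand), had 11.5, 13.5 and 14.1 CPM as its lowest, median and highest values in knockdown cells without stretch, against 17.0, 19.3 and 24.4 CPM in control cells without stretch. Under stretch it had 12.0, 14.1 and 15.7 CPM in knockdown cells, against 20.0, 23.4 and 24.7 CPM in control cells. No knockdown library reached a control library. With knockdown its log2 fold change was -0.59 (SE 0.0745, adjusted p = 1.44e-07, edgeR) without stretch and -0.70 (SE 0.0739, adjusted p = 6.05e-09, edgeR) under stretch.

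Mybphl, a smaller relative of Mybpc3 known in mice from atria and the conduction system (chr3:108364911-108380057, plus strand), was low. Its lowest, median and highest values were 0.152, 0.246 and 0.301 CPM in knockdown cells without stretch, against 0.355, 0.540 and 0.681 CPM in control cells without stretch. Under stretch they were 0.0926, 0.230 and 0.292 CPM in knockdown cells, against 0.349, 0.502 and 0.777 CPM in control cells. The groups did not overlap in CPM. Estimated counts without stretch were 6 to 13 in knockdown cells and 13 to 34 in control cells. The highest of the first and the lowest of the second are thus told apart only by library scaling. Under stretch the counts were 5 to 13 in knockdown cells and 18 to 27.2 in control cells. The log2 fold change was -1.20 (SE 0.253, adjusted p = 0.000214, edgeR) without stretch and -1.37 (SE 0.261, adjusted p = 6.95e-05, edgeR) under stretch. Counting all members tested, 6 were lower with no overlap without stretch, where 21.5% of all genes tested were, and 5 under stretch, where 17.3% of all genes were. Only Myl2, without stretch, was higher with no overlap, where 16.3% of all genes were, and 14.7% were under stretch.

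**Figure D2:**
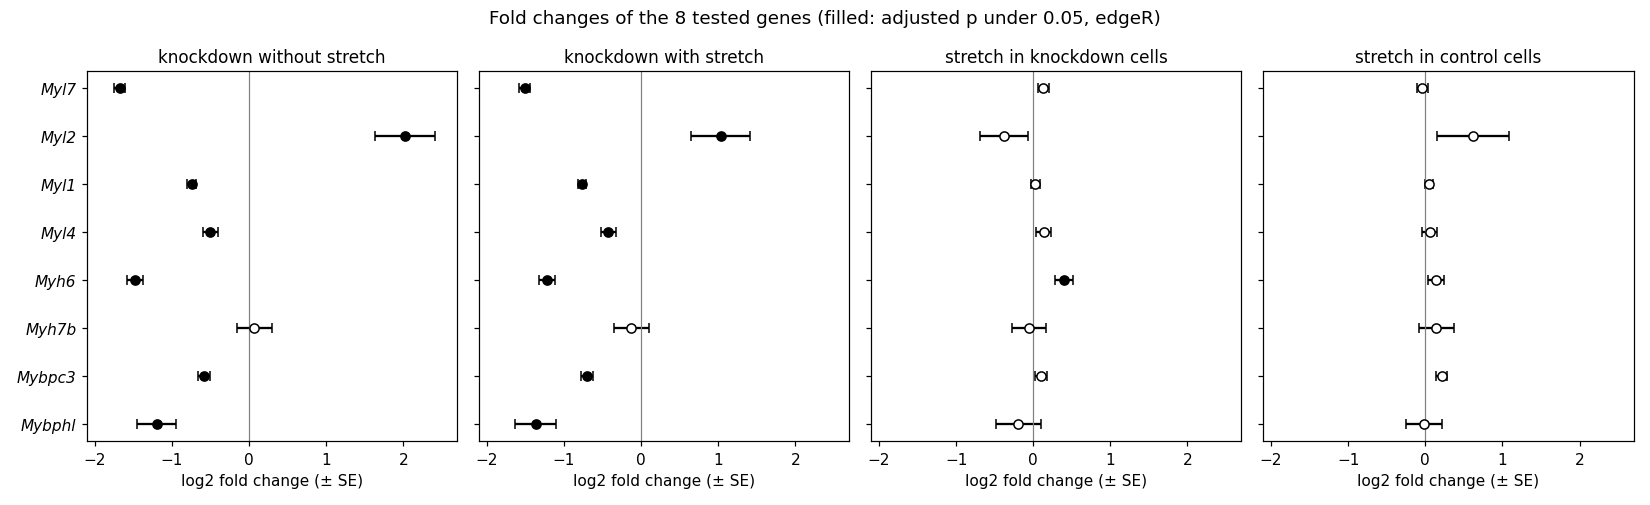
Log2 fold change of the 8 tested members in each comparison with its standard error, from edgeR's fit over all 24 libraries. Myl7 stands at -1.68 and -1.51 and Myh6 at -1.48 and -1.22 in the knockdown comparisons, and the stretch comparisons run from -0.38 to 0.61, both of them Myl2, which has the widest errors.

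The library codes end in a letter, a for replicates 1 to 3 and b for replicates 4 to 6, whose meaning the labels do not give. Within letter a the log2 ratio of mean CPM for Myl7 was -1.70 without stretch and -1.59 under stretch, and within letter b it was -1.65 and -1.42. For Myh6 it was -1.65 and -1.17 within letter a and -1.31 and -1.27 within letter b. The sign was the same within both letters for 7 of 8 members without stretch and for 8 of 8 under stretch. Members whose groups do not overlap keep their sign in any split of the same libraries. That covers all 7 without stretch, Myl2 among them, and 5 of the 8 under stretch. The letters are therefore a description and not a second test.

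Stretch gave few calls among the members, as it did among all genes tested, so the counts say nothing particular about the myosins. Its differences were small beside those of knockdown. In control cells 0 of 8 members were called by edgeR, where 5.95% of all genes tested were called, 2.55% as higher and 3.39% as lower. DESeq2 on the rounded counts also called 0, though it gave no adjusted p for Myl2, and limma on the authors' normalized values called 0. By edgeR 1 member, Mybpc3, had an unadjusted p under 0.05. In stretched control cells Mybpc3 averaged 23.1 ± 1.70 CPM, against 19.9 ± 2.51 CPM without stretch (SD, n = 6 each). Its log2 fold change was 0.22 (SE 0.0724, adjusted p = 0.0763, edgeR), and it was called in fits that left out replicate 6 of the stretched control cells (adjusted p = 0.0389), replicate 4 of the non-stretched knockdown cells (adjusted p = 0.0496) or replicate 1 of the non-stretched control cells (adjusted p = 0.0109). It was also called in the fit with the code letter as a term (0.22, adjusted p = 0.0308). Over all 8 members the log2 fold changes lay between -0.041 and 0.61, with Myl2 highest (SE 0.466), and their median was 0.099, against -0.011 for all genes. No member's groups were separate, where 1.16% of all genes were higher and 2.03% lower with no overlap. Within the code letters the sign was the same for 3 of 8 members.

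In knockdown cells 1 of 8 members was called, Myh6, which rose with stretch, where 5.32% of all genes tested were called as higher 3.61% as lower and 8.93% in either direction. In stretched knockdown cells it averaged 2.74 ± 0.576 CPM, against 2.07 ± 0.219 CPM without stretch (SD, n = 6 each). No member's groups were separate, where 3.50% of all genes were higher and 1.93% lower with no overlap. Those of Myh6 overlapped, since the lowest stretched library had 2.13 CPM and the highest non-stretched one 2.33 CPM. The log2 fold change was 0.40 (SE 0.115, adjusted p = 0.0288, edgeR), and the log2 ratio of means was 0.51 within letter a and 0.30 within letter b. This call was lost in fits without replicate 1 (0.29, adjusted p = 0.0997) or 5 (adjusted p = 0.0687) of the stretched knockdown cells, or without replicate 1 (adjusted p = 0.0615), 3 (adjusted p = 0.0588) or 5 (adjusted p = 0.0595) of the non-stretched ones. It was also lost with limma on the authors' normalized signal (0.22, adjusted p = 0.677) and in a fit of the compared groups alone (0.40, adjusted p = 0.055). The other 7 members had log2 fold changes from -0.38 for Myl2 to 0.13 for Myl4, and Myl7 (0.13, SE 0.0724, adjusted p = 0.312) was called only without replicate 5 of the stretched control cells (adjusted p = 0.0155) among the fits that left out 1 library.

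Whether stretch acted differently in knockdown and control cells was tested as an interaction. None of the 8 members was called by edgeR, where 0.0208% of all genes tested were called, and none had an unadjusted p under 0.05. Limma on the authors' normalized signal called none. DESeq2 called none either, but it gave no adjusted p for Myh6, Myh7b, Myl2, Myl4 and Mybphl, so it could not decide for these. The interaction log2 fold changes were 0.26 (SE 0.152, adjusted p = 0.618) for Myh6, 0.17 (SE 0.101, adjusted p = 0.629) for Myl7 and -0.99 (SE 0.562, adjusted p = 0.606) for Myl2. So the rise of Myh6 with stretch in knockdown cells was not shown to differ from its change of 0.14 (SE 0.0998, adjusted p = 0.456) in control cells. With limma on the authors' normalized signal the change of Myh6 was 0.22 in knockdown cells and 0.38 in control cells, and the interaction turned to -0.15 (adjusted p = 0.965).

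Between genes, levels can be compared only per length, here as CPM per kilobase of the longest coding transcript. In knockdown cells without stretch Myl7 led with 119 ± 7.27 CPM per kilobase, ahead of Myl1 with 21.6 ± 1.93, Myl4 with 4.48 ± 0.478, Mybpc3 with 3.18 ± 0.225 and Myh6 with 0.339 ± 0.0358 (SD, n = 6 each). Control cells without stretch had the same leading order, with 379 ± 16.5 for Myl7, 36.1 ± 0.940 for Myl1, 6.35 ± 0.486 for Myl4, 4.77 ± 0.603 for Mybpc3 and 0.946 ± 0.122 for Myh6. Myl7, Myl1, Myl4 and Mybpc3 thus stood above all 3 heavy chains per length. Neighbours in this order were separated over the libraries, except that Myl4 overlapped Mybpc3 in control cells. Below Myh6 the order differed. In knockdown cells without stretch Myl2 (0.309), Mybphl (0.182) and Myh7b (0.153) followed, each overlapping its neighbour, and Myl2 also overlapped Myh6. In control cells without stretch Mybphl (0.416) was separate, and Myh7b (0.145), Myl2 (0.0726), Myl3 (0.066) and Myh7 (0.028) overlapped one after the other. With the mean transcript length in place of the longest, 20 of 40 such levels moved by more than their SD, those of Myh6, Myh7, Myl1, Myl2 and Myl4.

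**Figure D3:**
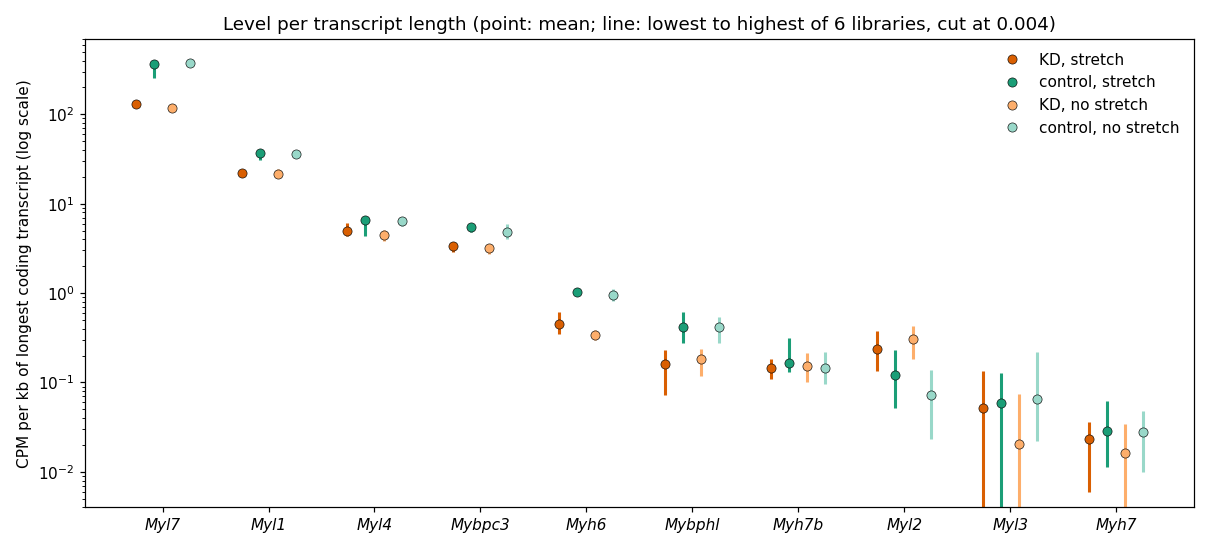
Mean CPM per kilobase of the longest coding transcript for each member and group on a log axis, as points, with lines over the lowest to highest of 6 libraries, drawn down to 0.004. Myl7 leads in every group, at 119 in knockdown cells and 379 in control cells without stretch.

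The share of each gene in its class is given as a description, with no test. Per length, Myh6 made up 66.9% ± 7.36 of the 3 heavy chains in knockdown cells without stretch, against 84.7% ± 3.03 in control cells without stretch (SD, n = 6 each). Under stretch its share was 72.2% ± 4.69 in knockdown cells and 84.6% ± 3.75 in control cells (SD, n = 6 each). The lower share goes with a fall of Myh6 while Myh7b did not pass the test. Among the essential light chains the share of Myl4 was 17.2% ± 1.32 in knockdown cells and 14.9% ± 0.979 in control cells without stretch, since Myl1 had the larger fold change. Mybpc3 held 94.6% ± 1.15 of the binding protein RNA per length in knockdown cells and 92.0% ± 1.59 in control cells without stretch. The libraries of knockdown and control cells without stretch overlapped in the shares of Myl4 and Mybpc3 and did not in that of Myh6.

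**Figure D4:**
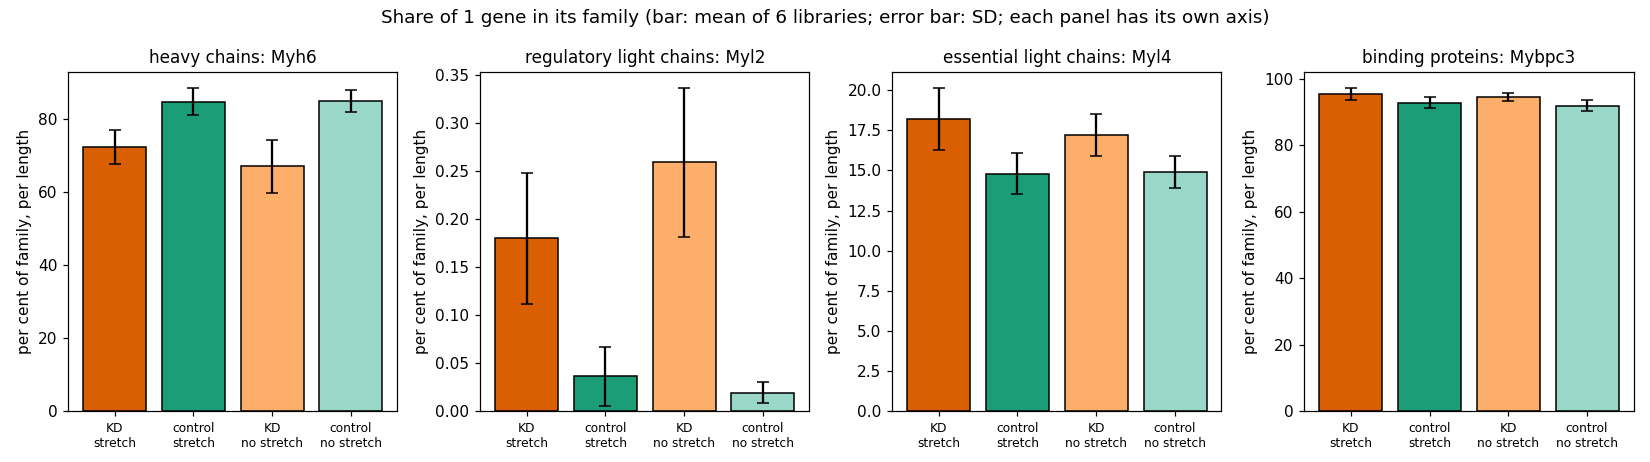
Percent of its class per transcript length held by Myh6, Myl2, Myl4 and Mybpc3, by group, as bars of the mean with the SD, each panel with its own axis. Myh6 averages 66.9% of the heavy chains in knockdown cells without stretch and 84.7% in control cells without stretch.

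The genes whose pattern over the 24 libraries was most like that of Myl7 were also of the sarcomere in the first places. They were Tnni3, cardiac troponin I, with a root mean square difference of 0.059 in centred log2 CPM, Tnni1, slow skeletal troponin I (0.082), and Sod3, the extracellular superoxide dismutase (0.11), among 11380 candidates. Without stretch Tnni3 averaged 48.2 ± 3.93 CPM in knockdown cells, against 153 ± 8.41 CPM in control cells (SD, n = 6 each). Nearest to Myh6 were Fgf16, a heart fibroblast growth factor (0.19), Cemip (0.19) and Ablim3 (0.19). Nearest to Myl2, at larger distances, were Abhd3 (0.41), Matn2 (0.43) and Dlk2 (0.43). Of all genes tested 57.8% and 52.0% were called in the knockdown comparisons, and all patterns share the same libraries, so likeness is a description.

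Genes that work on the thick filament fell more often than they rose. Of 20 partners, kinases and chaperones tested (of 21 listed), 13 fell and 2 rose with knockdown, both without and with stretch. Of all genes tested, 29.7% fell and 28.0% rose without stretch, and 26.9% fell and 25.1% rose under stretch. The list's median log2 fold change was -0.39 without stretch and -0.32 under stretch. Unc45b, a chaperone that folds muscle myosin heads, averaged 62.1 ± 2.35 CPM in knockdown cells, against 149 ± 4.83 CPM in control cells, without stretch (SD, n = 6 each). Its log2 fold change was -1.26 (SE 0.0326, adjusted p = 9.73e-22, edgeR). Mylk3, the cardiac myosin light chain kinase, was at -0.99 on the log2 scale (SE 0.0386, adjusted p = 5.00e-18), Mylk, the smooth muscle kinase, at -0.98 (SE 0.0444, adjusted p = 1.10e-16), and Mylk2, the skeletal kinase, at -2.06 (SE 0.116, adjusted p = 1.11e-14). These enzymes phosphorylate regulatory light chains. Titin (Ttn), whose giant protein spans from Z-disc to M-line, was at -0.72 (SE 0.062, adjusted p = 1.58e-10), and Myom1, an M-line crosslinker, rose, at 0.73 (SE 0.0933, adjusted p = 1.38e-07). Ttn and Myom1 were named after their values were seen. With stretch, 3 of the 20 partners rose in knockdown cells, where 5.32% of all genes did. The relatives of MuRF1 differed in level. Trim55, which encodes MuRF2, was at -1.01 on the log2 scale (SE 0.0454, adjusted p = 7.99e-17) without stretch and -0.84 (SE 0.045, adjusted p = 5.26e-15) under stretch, and Trim54, which encodes MuRF3, held at most 2 estimated counts in any library.

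Other myosins of striated muscle were mixed. Of 7 tested (of 14 listed), 3 fell and 1 rose without stretch, and 3 fell and 2 rose under stretch. With 57.8% of all genes called without stretch and 52.0% under stretch, these counts say nothing particular about the list. Myh8, the perinatal heavy chain, averaged 5.19 ± 0.211 CPM in knockdown cells, against 10.0 ± 0.548 CPM in control cells without stretch (log2 fold change -0.95, SE 0.0518, adjusted p = 5.78e-15, edgeR). Under stretch Myh13, the extraocular heavy chain, fell (-0.57, SE 0.085, adjusted p = 1.98e-06), and Myh3, the embryonic heavy chain, rose (0.72, SE 0.14, adjusted p = 9.50e-05). Myh14, at 0.15 (SE 0.0524, adjusted p = 0.0173), encodes a non-muscle heavy chain although it was listed here. Of 8 smooth and non-muscle myosin II genes, 2 fell and 1 rose without stretch, and 2 fell and 2 rose under stretch, beside the same shares of all genes. Myl9, a regulatory light chain of smooth muscle and non-muscle myosin, had the largest of these changes, at -1.04 (SE 0.0456, adjusted p = 5.01e-17, edgeR) without stretch. Under stretch Myl6, an essential light chain, was at -0.24 (SE 0.073, adjusted p = 0.00864), and the heavy chains Myh10 and Myh11 were at 0.21 (SE 0.0304, adjusted p = 1.56e-06) and 0.59 (SE 0.19, adjusted p = 0.0109). The median over the striated list was -0.25 without stretch and 0.061 under stretch.

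Of 19 transcription factors known to act on myosin genes, 11 fell and 2 rose without stretch, and 11 fell and 4 rose under stretch, with medians of -0.31 and -0.28. Of all genes, 29.7% fell and 28.0% rose without stretch, and 26.9% and 25.1% did under stretch. Myocd, an SRF cofactor of heart and smooth muscle, was at -0.83 on the log2 scale (SE 0.0346, adjusted p = 1.96e-17, edgeR) without stretch. Thra, the thyroid hormone receptor through which Myh6 is regulated, was at -0.82 (SE 0.0432, adjusted p = 2.43e-15), Tbx5 at -0.69 (SE 0.0425, adjusted p = 8.44e-14) and Gata6 at -0.57 (SE 0.0343, adjusted p = 4.24e-14). Nkx2-5, named after its values were seen, rose by 0.25 (SE 0.0398, adjusted p = 4.20e-06). With stretch, 5 of the 19 rose in knockdown cells, where 5.32% of all genes did. In control cells 1 rose and 2 fell, where 2.55% of all genes rose and 3.39% fell. Among them Srf was at 0.37 (SE 0.0449, adjusted p = 3.13e-06) in knockdown cells and 0.38 (SE 0.0447, adjusted p = 7.27e-06) in control cells, also named after its values were seen.

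Markers of several cell types differed with knockdown too, and their part in the results was not tested. Of all genes tested, 29.7% were called lower and 28.0% higher without stretch, and 26.9% and 25.1% under stretch. With 3 genes tested each, the ventricular, endothelial, skeletal muscle and macrophage counts say little beside these shares. Of 13 atrial cardiomyocyte markers tested (of 15), 10 were lower and 2 higher (Nppb and Nkx2-5) in knockdown cells, with and without stretch. The summed level of the list was 2380 to 2710 CPM in the 12 knockdown libraries, against 4090 to 4590 CPM in the 12 control libraries. Most of that sum was Atp2a2 and Tnnt2, given above as cardiac markers. Without stretch Atp2a2 averaged 1280 CPM in knockdown and 1880 CPM in control cells, and Tnnt2 513 and 1250 CPM. Of 6 fibroblast markers tested (of 8), 5 were lower in both comparisons, with sums of 79.9 to 101 CPM in knockdown libraries and 216 to 250 CPM in control libraries, most of it from Col1a1 and Col3a1. Of 5 smooth muscle markers, 3 were lower, with sums of 1700 to 1910 CPM in knockdown libraries and 2460 to 2830 CPM in control libraries, and under stretch 1 was higher. Ventricular markers, 3 of 4 tested, were 2 higher and 1 lower, with sums of 162 to 196 CPM in knockdown libraries and 307 to 360 CPM in control libraries. Nearly all of that sum was Lbh, the lower one, while Hey2 and Kcne1 were the higher ones. Endothelial markers (3 of 5 tested, 1 lower) summed to 7.11 to 9.07 CPM in knockdown libraries and 8.75 to 10.2 CPM in control libraries. Skeletal muscle markers (3 of 7 tested, 2 lower without and 1 lower under stretch) summed to 6.94 to 10.1 CPM in knockdown libraries and 8.77 to 11.4 CPM in control libraries, with Myod1 and Myog near 0. Macrophage markers (3 of 5 tested, 2 higher without and 1 higher under stretch) summed to 2.10 to 3.91 CPM in knockdown libraries and 1.56 to 3.54 CPM in control libraries.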

How the data were processed

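Estimated counts per protein-coding gene were deposited by the authors, with a second table of normalized signal per gene. Per the submitters' processing notes, the GRCm38.p6 build was used with kallisto 0.44.0, and R 3.4.4 and DESeq2 1.18.1 are also named. The release of the annotation and whether counting used strand are not given in the sources used. Of the deposited values 36.6% of the estimated counts were whole within a tolerance of 1e-09, and values were rounded to whole numbers for the tests.

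Levels are CPM scaled by the trimmed mean of M values (TMM). Genes were kept by edgeR's filterByExpr (minimum count 10, minimum total 15). edgeR 4.0.16 (R 4.3.3, quasi-likelihood, robust) was fitted with 1 coefficient per group over all 24 libraries, with 20 residual degrees of freedom, and p-values were adjusted by Benjamini-Hochberg over all 14411 genes. The standard error is the absolute log2 fold change divided by the square root of F. The pipeline was tested on simulated data. Alternatives were DESeq2 1.42.0 size factors and its Wald test, limma 3.58.1 with trend on the log2 of the authors' signal plus 1, no filter, only the groups compared, blocks by replicate number or code letter, and leaving out each library. Counting limits cover counting error only.

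The 10 members, the gene lists and the tests were chosen with earlier results of these data known. All members are reported. From each of the thick filament, myosin and transcription factor lists, up to 4 genes with the smallest adjusted p are named, and for the 3 members with the largest range of group means, the 3 genes nearest in centred log2 CPM (average log2 CPM of at least 1). The marker lists (atrial cardiomyocyte, ventricular, fibroblast, smooth muscle, endothelial, skeletal muscle and macrophage) share Nkx2-5, Gata4, Tbx5, Myh11 and Mylpf with the other lists. Lengths and exons are from GENCODE vM21. Protein sequences were not used here.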

Additional observations from a re-analysis of the deposited data

Results flagged for a closer look

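There were 40 sets of 6 values, 1 set for each member and group. In them 8 values stood apart from the other 5 of their set. Their gap to the nearest value was over Dixon's 95% critical share of the set's range. Chance flags about 1 in 20 sets, but the sets draw on the same 24 libraries, so the flags are not independent. Replicate 5 of the stretched control cells accounted for 4 of the 8. It had 1.96 CPM of Myh7b, against 0.799 to 0.874 CPM in the other 5 libraries of its group. Its Myl7 was 151 CPM, against 217 to 239 CPM, its Myl1 33.0 CPM, against 40.8 to 43.3 CPM, and its Myl4 4.09 CPM, against 6.39 to 6.83 CPM. Its Myh6, at 6.95 CPM, and Mybpc3, at 23.9 CPM, were at or within the upper end of the group. In replicate 6 of the stretched knockdown cells Myl4 was 5.70 CPM, against 4.14 to 4.69 CPM in the others. In replicate 4 of the non-stretched knockdown cells Mybpc3 was 11.5 CPM, against 13.2 to 14.1 CPM in the others. Myl3 stood apart in replicate 3 of the non-stretched knockdown cells, at 0.0702 CPM against 0 to 0.0251 CPM, and in replicate 5 of the non-stretched control cells, at 0.205 CPM against 0.021 to 0.0547 CPM. These are 2.64 and 10 estimated counts.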

How the results depend on the processing

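Outside the fits that left out 1 library, 262 of 272 alternative values kept their direction and, where an adjusted p was given, their side of the threshold. Among the fits that left out 1 library 930 of 960 did. DESeq2 gave no adjusted p for Myl2 in the stretch comparisons, or for Myh6, Myh7b, Myl2, Myl4 and Mybphl in the interaction. These values were judged by direction alone. The 7 members called with knockdown without stretch were called in all alternatives, and 7 were called under stretch in all but the fits that left out 1 library, which called 6 to 7. Both counts of 7 include Myl2, which passed the filter through knockdown libraries only, so its calls are no support for a rise. For stretch in control cells, 0 members were called, but 1 (Mybpc3) with a replicate block (0.22, adjusted p = 0.0294) and 1 with a block by code letter (0.22, adjusted p = 0.0308), and 0 to 1 when 1 library was left out. For stretch in knockdown cells, 1 member was called, 0 with the authors' signal (Myh6 0.22, adjusted p = 0.677), and 0 to 2 when 1 library was left out. With only the groups compared, Myh6 was not called (0.40, adjusted p = 0.055) and Myl7 was (0.13, adjusted p = 0.0331). Replicate numbers did not pair the libraries: same-numbered deviations correlated from -0.0638 to 0.137, over 0.1 in 1 pair, and the replicate block changed no other member's call. Genes called with stretch in control cells numbered 857, but 558 with the authors' signal, 377 with only the groups compared and 566 to 2020 when 1 library was left out (2020 without replicate 5 of the stretched control cells). With stretch in knockdown cells they numbered 1287, and 866 to 1933 (1933 without the same library). For the interaction they numbered 3, but 1 with the authors' signal, 122 with DESeq2, 9 with the replicate block, 45 with a block by code letter and 0 to 109 when 1 library was left out. Mybphl with stretch in control cells (-0.018) reversed to 0.034 with the authors' signal, 0.00215 without a filter and 0.000131 with the replicate block, and ranged from -0.12 to 0.091 over the left-out libraries. With the authors' signal the interaction of Myh6 was -0.15 and that of Myl1 0.0077. Over the left-out libraries Myh7b ranged from -0.10 to 0.31 with stretch in control cells, from -0.15 to 0.067 with stretch in knockdown cells, from -0.054 to 0.24 with knockdown without stretch, from -0.20 to 0.11 with knockdown under stretch and from -0.37 to 0.044 in the interaction. Myl7 with stretch in control cells ranged from -0.070 to 0.042, and the interactions of Myl1 and Myl4 from -0.069 to 0.0051 and from -0.0042 to 0.11. The causes were not tested. At these depths Myh7, Myl2 and Myl3, with at most 15.9, 14.8 and 10 estimated counts, are limited by counting error. So is Mybphl in knockdown cells, with at most 13 estimated counts.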
